A study of Mus musculus with 2 samples.

Results

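Molecular chaperones of the cytosol and the mitochondria were examined in normal and type 2 diabetic mouse liver. The set held 51 of the 8551 genes in the deposited table. Its members were the listed genes whose symbols begin as those of the HSP40 (Dnaja, Dnajb and Dnajc), HSP60 and HSP10, HSP70, HSP90, HSP110 and small heat shock protein families and of the Cct genes do, together with Tcp1, Hsf1 and Bag3. Of 54 symbols with these forms, 3 that encode chaperones of the endoplasmic reticulum (ER), Hspa5, Hsp90b1 and Dnajb9, were left out. The members comprised 2 HSP90 genes, 7 HSP70 and HSP110 genes, 26 J-protein genes, 4 genes named as small heat shock proteins, the HSP60 gene Hspd1, the 8 genes of the TRiC/CCT ring and 3 regulators. No listed gene carried the symbol Hspa8, Hspa1a, Hspa1b, Dnaja1 or Hspe1, so these were not analysed here.

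One library represented wild type male mice and is called normal liver below, and the other represented male db/db mice (called db/db liver), a model of type 2 diabetes in which a germline mutation of the leptin receptor leads to obesity and high blood glucose. Both groups were adults of 9 weeks with a C57BL/6 background, and livers were taken about 3 h into the light phase. Digital gene expression tags were counted in 1 library per group, so no difference has a replicate check, and the methods do not state whether RNA of several mice was pooled. The methods name a pair of suppliers without saying which group came from which, so whether supplier and genotype coincide is not known here.

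HSP70 and HSP90 are ATP-driven chaperones that hold and release unfolded proteins. J-proteins bring clients to HSP70 and start its ATPase, and HSP110 proteins exchange its nucleotide. TRiC/CCT is a ring of 8 different subunits that folds actin, tubulin and other cytosolic proteins, while HSP60 forms the folding chamber of the mitochondrial matrix. HSF1 is the transcription factor that induces many of these genes during heat shock, and the liver, which makes and secretes large amounts of protein, expresses most of them without stress.

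Levels are given in TPM, the number of tags assigned to a gene per 1000000 clean tags of the same library. They come in steps of 0.0973 TPM in normal liver and 0.0740 TPM in db/db liver, each the value of 1 tag, which gave 10278531 and 13508232 clean tags. The members had 20 to 5493 tags in normal liver and 21 to 4028 in db/db liver. Ratios are diabetic over normal TPM with 95% Clopper-Pearson intervals from the tags, which cover counting error only. A gene is said to have risen or fallen where it differed at least 1.5-fold with a false discovery rate (FDR) under 0.001 by an exact binomial test (two-sided) of its tags, adjusted over all 8551 genes. That test compares the 2 libraries and not the conditions. The median log2 ratio of all listed genes was 0.25, and 4 other scalings between the libraries lowered each log2 ratio by 0.25 to 0.31. Of these, trimmed mean of M values (TMM) scaling lowered it by 0.25, and its values are given as ratios relative to the typical gene.

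The tissue label was checked on marker genes. The 5 hepatocyte markers listed summed to 10515 TPM in normal liver and 11110 TPM in db/db liver, with Alb at 6801 and 6912 TPM. Of 7 Kupffer cell markers listed, 4 fell (C1qa, C1qc, Csf1r and Emr1) and 1 rose (C1qb), and their sum was 323 TPM in normal liver and 190 TPM in db/db liver. C1qa carried much of the difference between these sums, at 176 and 50.7 TPM, whereas Cd5l was at 64.7 and 62.9 TPM. The sums of the sinusoidal endothelial (7 genes), stellate (4 genes) and cholangiocyte (3 genes) markers were 112 and 102, 94.7 and 127, and 61.5 and 107 TPM in the same order. Most of the cholangiocyte sum was Spp1, at 57.2 and 103 TPM, while Epcam was at 3.21 and 3.04 TPM and Krt7 at 1.07 and 1.18 TPM. Markers of 1 list also differed in direction. Dcn was at 56.9 and 84.4 TPM and Reln at 12.84 and 7.11 TPM (stellate), and Kdr at 11.97 and 22.13 TPM and Clec4g at 47.67 and 30.65 TPM (endothelial). The 2 T, NK and B cell markers listed summed to 6.62 and 3.99 TPM. No listed marker was at 0. In whole liver, fewer cells of a type and less RNA per cell cannot be told apart, and the part of these shifts in the chaperone values was not tested.

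The libraries were made from DpnII-cut cDNA primed with random hexamers, so a gene is read through short tags that start at a GATC site. The expected tag at the GATC nearest the 3′ end was read from GENCODE M21 transcripts (GRCm38) for 50 of the 51 members, and it lay in the 3′ UTR for 33 and in coding sequence for 17. Tags of other sites may have been counted as well, and the tag length of 20 bases is assumed. The tags of the 15 members that rose or fell are shown because they are the sequences through which these genes would be read if the site nearest the 3′ end was used, with the DpnII site in capitals.
Hsp90ab1: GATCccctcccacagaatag, chr17:45567868-45567887, minus strand, 3′ UTR.
Hsp90aa1: GATCcataaaaattacactg, chr12:110690958-110690977, minus strand, 3′ UTR.
Hspa4: GATCtctgtaacagagcctc, chr11:53260436-53260455, minus strand, 3′ UTR.
Hsph1: GATCggcattgggaaaagga, chr5:149616805-149616824, minus strand, 3′ UTR.
Hspb1: GATCaccattccggttactt, chr5:135889346-135889365, plus strand, coding.
Cct5: GATCtctcttgccacccaga, chr15:31590987-31591006, minus strand, coding.
Cct7: GATCctccagctccatcagc, chr6:85468224-85468243, plus strand, coding.
Cct8: GATCatcatggcaaaaccag, chr16:87484047-87484804, minus strand, coding and across an exon junction.
Hspd1: GATCcaacaaaggttgtgag, chr1:55078433-55078540, minus strand, coding and across an exon junction.
Dnajb4: GATCagtgtgataggctcct, chr3:152184744-152184763, minus strand, 3′ UTR.
Dnajc4: GATCatgccccaggacacaa, chr19:6988005-6988024, minus strand, coding.
Dnajc9: GATCttcttttcttggtcta, chr14:20384964-20384983, minus strand, 3′ UTR.
Dnajc15: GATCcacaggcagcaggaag, chr14:77821405-77821424, minus strand, 3′ UTR.
Dnajc25: GATCcctcagacatacccac, chr4:59025000-59025019, plus strand, 3′ UTR.
Dnajc30: GATCcagcagacgctgggga, chr5:135065419-135065438, plus strand, 3′ UTR.
In the GENCODE transcripts, the expected tags of 47 members occurred in no other gene. That of Hspd1 also occurred in the pseudogene Hspd1-ps5, that of Dnajc15 in Gm17033 and Olfr1381, and that of Dnajc17 in Gm6257. The paper reports reads mapped to unique genes apart from those mapped to multiple genes. Tags of the listed genes were 37.1% of clean tags in normal liver and 44.4% in db/db liver. These shares lie nearer the paper's average for unique genes than its average for all genes. Whether shared tags entered the values of these 3 members is not stated outright, so the values are uncertain to that degree.

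Of the 51 chaperone genes, 8 rose and 7 fell, and 36 met neither definition. The background over all listed genes was 22.9% higher and 8.19% lower, against 15.7% and 13.7% of the members. By the 1.5-fold threshold alone, 15 members were higher and 8 lower, with backgrounds of 34.4% and 15.3%. With TMM scaling 5 members rose and 7 fell, and the backgrounds were 14.9% and 13.4%. The same 7 genes fell under the deposited values and under each of the 4 scalings, and Hspd1, Dnajb4, Dnajc4, Dnajc9 and Dnajc15 rose under all of them. The median log2 ratio of the members was 0.26, next to 0.25 for all genes. The families differed in their median, from -0.75 for HSP90 to 0.53 for the J-proteins and 1.03 for the single HSP60 gene, which is a description of the libraries without a test.

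**Figure D1:**
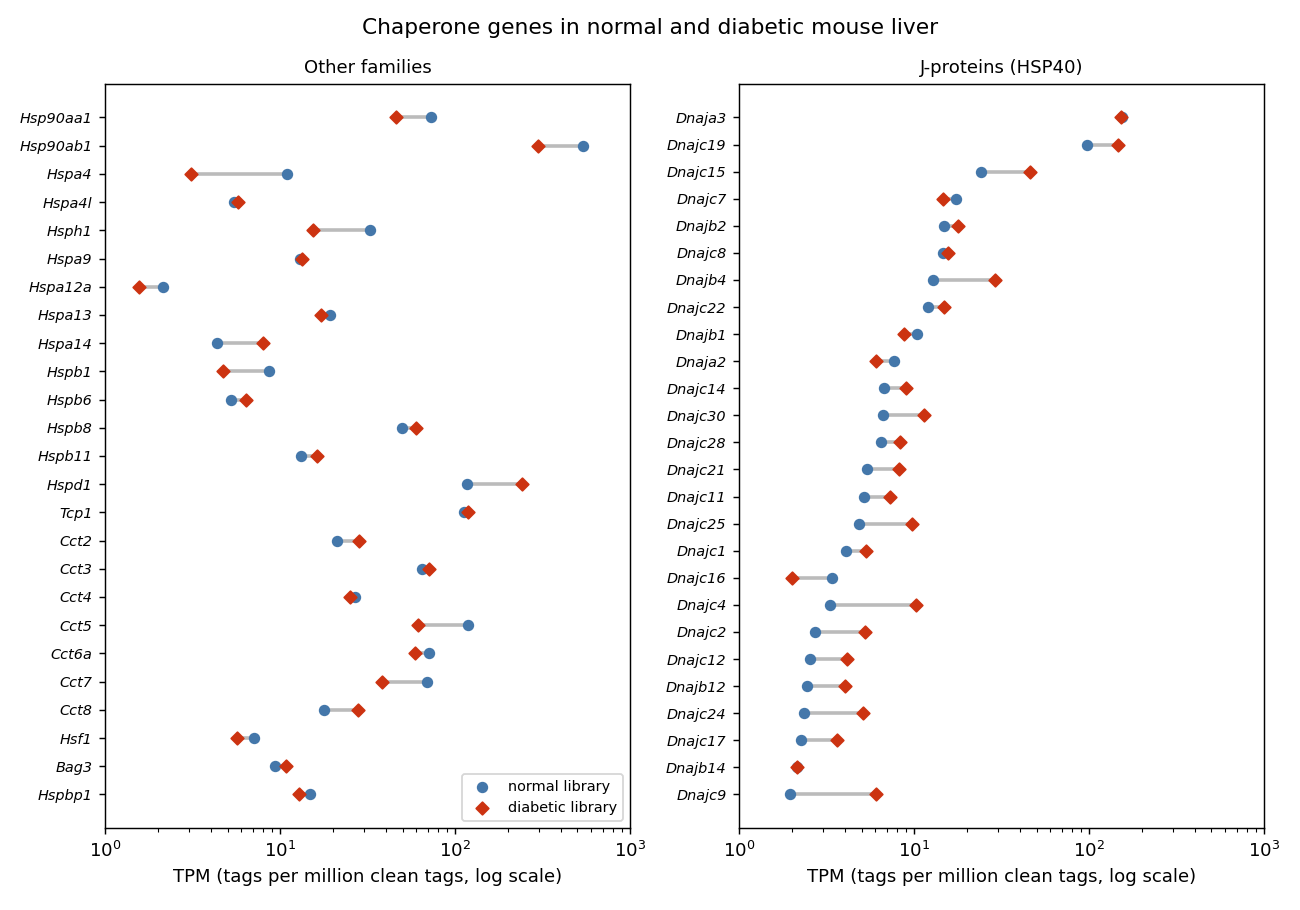
Level of each of the 51 chaperone genes in TPM (log scale) in normal liver (blue circles) and the diabetic library (red diamonds), with J-proteins on the right ordered by their level in normal liver. Both HSP90 genes, Hspa4, Hsph1, Hspb1, Cct5 and Cct7 lie lower in db/db liver, and Hspd1 lies at 240 TPM there against 117 TPM in normal liver.

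Both cytosolic HSP90 genes fell in db/db liver. Hsp90ab1 (Entrez 15516), the constitutive form, was at 534 TPM (5493 tags) in normal liver and 298 TPM (4028 tags) in db/db liver. It was 1.79-fold lower, with a log2 ratio of -0.84 (95% interval, -0.90 to -0.78, exact test FDR 4.1e-175). Hsp90aa1 (Entrez 15519), the form more strongly induced by heat, was at 73.0 TPM and 46.2 TPM, which is 1.58-fold lower (log2 ratio -0.66, 95% interval -0.82 to -0.50, exact test FDR 2.2e-16). Of the HSP90 tags, 12.01% were from Hsp90aa1 in normal liver (95% Wilson interval, 11.2% to 12.8%) and 13.4% in db/db liver (12.5% to 14.4%). These intervals overlap, which does not show that the proportion of the 2 genes was the same, and the difference was not tested. HSP90 tags made up 32.8% of the tags of the 51 members in normal liver (32.2% to 33.5%) and 19.7% in db/db liver (19.2% to 20.2%). That share does not depend on the scaling between the libraries, and chaperones outside the set are not counted in it.

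The HSP110 genes encode nucleotide exchange factors of HSP70, and 2 of the 3 listed fell. Hspa4 (Entrez 15525) had 113 tags in normal liver and 42 in db/db liver, or 10.99 and 3.11 TPM. It was 3.53-fold lower, the largest decrease among the chaperone genes under the deposited values. The interval around its log2 ratio of -1.82 ran from -2.37 to -1.30 (exact test FDR 6.4e-13), and 1.72% of all listed genes had a ratio at or below it. Hsph1 (Entrez 15505), which is heat inducible, was at 32.5 TPM and 15.5 TPM, 2.10-fold lower (log2 ratio -1.07, 95% interval -1.33 to -0.82, exact test FDR 1.0e-16). The third, Hspa4l, had a log2 ratio of 0.08 with an interval from -0.43 to 0.61 at 56 and 78 tags, above the intervals of the other two.

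None of the listed HSP70 genes proper met both criteria. Hspa9 (Entrez 15526), the HSP70 of the mitochondrial matrix, was at 13.04 and 13.25 TPM, a log2 ratio of 0.02 (95% interval, -0.31 to 0.36), which was -0.23 under TMM scaling. Hspa13, a microsomal member, was at 19.3 and 17.0 TPM, a log2 ratio of -0.18 (95% interval, -0.46 to 0.10). Hspa12a had only 22 and 21 tags, and its interval of -1.40 to 0.47 leaves its direction undetermined at this depth. Hspa14, which works at the ribosome together with the J-protein Dnajc2, was at 4.38 and 7.92 TPM. Its log2 ratio of 0.85 (95% interval, 0.34 to 1.39, exact test FDR 0.0019) passed the fold threshold but not the FDR. Dnajc2 itself was at 2.72 and 5.26 TPM, a log2 ratio of 0.95 (0.30 to 1.63, exact test FDR 0.0069), so both partners were higher by more than 1.5-fold and neither met both criteria.

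**Figure D2:**
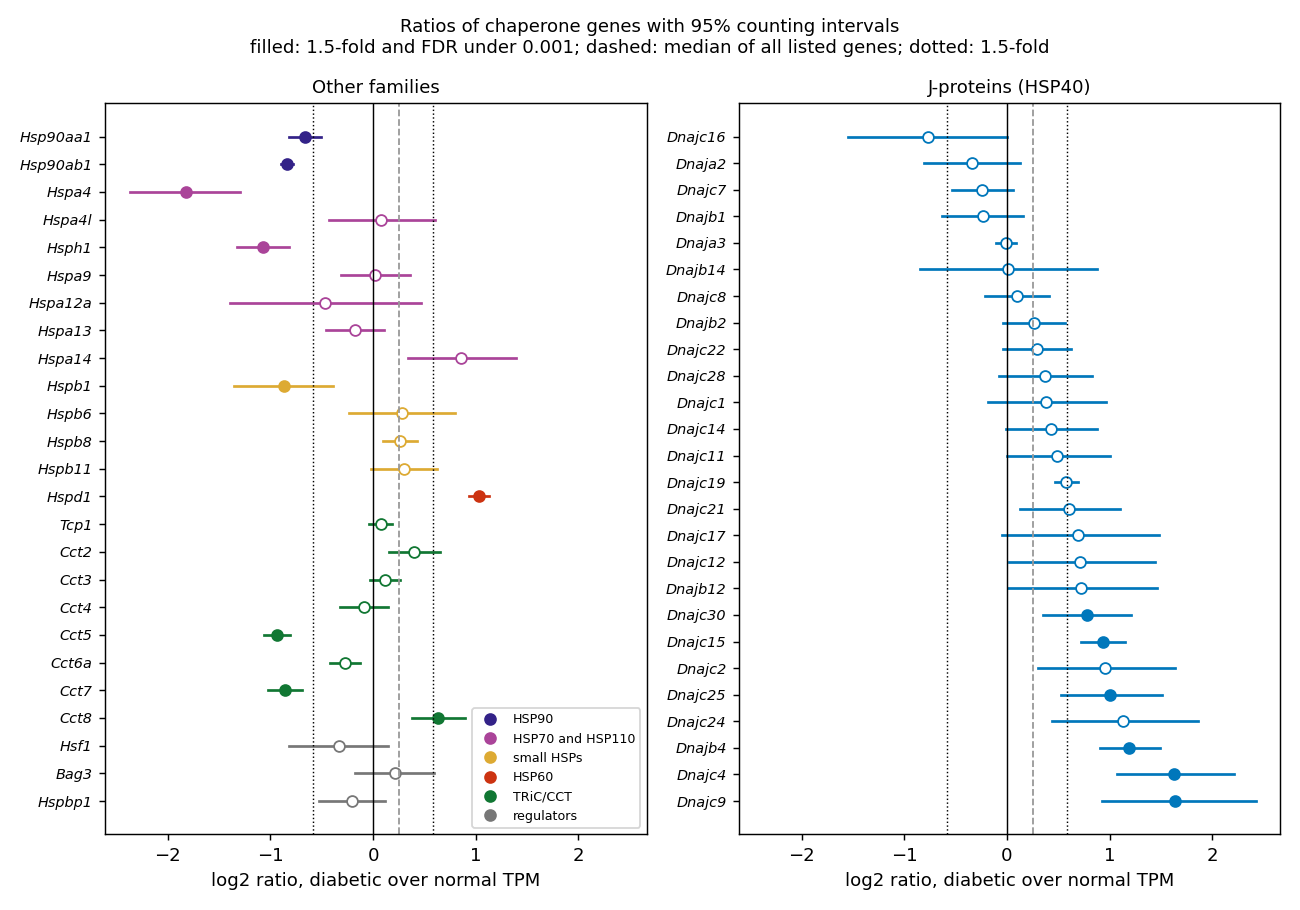
Log2 ratio of diabetic over normal TPM for each chaperone gene with its 95% Clopper-Pearson interval, coloured by family (left) and for the J-proteins in order (right). Filled points met both criteria, dotted lines mark 1.5-fold and the dashed line marks the median of all listed genes at 0.25. Hspa4 at -1.82 and Dnajc9 at 1.64 are the extremes.

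Hspd1 (Entrez 15510), which encodes HSP60, rose from 117 TPM (1207 tags) to 240 TPM (3237 tags). The increase was 2.04-fold, with a log2 ratio of 1.03 (95% interval, 0.93 to 1.13, exact test FDR 5.0e-107), and it was 0.78 under TMM scaling. Its expected tag is one of those that also occur in a pseudogene. For each tag of Hsp90ab1, 0.220 tags of Hspd1 were counted in normal liver and 0.804 in db/db liver. The share of Hspd1 in the tags of the 51 members was 6.35% in normal liver (95% Wilson interval, 6.01% to 6.71%) and 13.7% in db/db liver (13.3% to 14.2%).

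The 8 subunits of TRiC/CCT occur once in each ring of the complex, and all 8 genes were listed. Of these, 1 rose, or 12.5% beside 22.9% of all genes, 2 fell, or 25% beside 8.19%, and 5 met neither definition. Under TMM scaling 0 rose and the same 2 fell, beside 14.9% and 13.4% of all genes. Cct5 (Entrez 12465) was at 118 TPM and 61.6 TPM, 1.91-fold lower, with a log2 ratio of -0.93 (95% interval, -1.06 to -0.81, exact test FDR 1.2e-46). Cct7 (Entrez 12468) was at 69.3 TPM and 38.3 TPM, 1.81-fold lower, with a log2 ratio of -0.86 (95% interval, -1.02 to -0.69, exact test FDR 4.2e-24). In the other direction, Cct8 (Entrez 12469) was at 17.8 and 27.7 TPM, a 1.56-fold increase (log2 ratio 0.64, 95% interval 0.38 to 0.90, exact test FDR 2.5e-06). Under TMM scaling the log2 ratio of Cct8 was 0.38, which is below 1.5-fold, while Cct5 and Cct7 were at -1.19 and -1.11.

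The remaining subunit genes lay between these. Tcp1, Cct3 and Cct4 had log2 ratios of 0.07, 0.12 and -0.09, and each of their intervals included 0. Cct2 was at 0.40 (95% interval, 0.16 to 0.65) and Cct6a at -0.27 (-0.42 to -0.13). Tcp1 and Cct3 were below 0 under each of the 4 other scalings. The sum over the 8 genes was 501 TPM in normal liver and 428 TPM in db/db liver.

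Because the subunit genes were counted in the same libraries, their shares of all TRiC/CCT tags do not depend on scaling. Cct5 gave 23.5% of these tags in normal liver (95% Wilson interval, 22.3% to 24.7%) and 14.4% in db/db liver (13.5% to 15.3%). For Cct7 the shares were 13.8% (12.9% to 14.8%) and 8.94% (8.23% to 9.70%). Tcp1 went from 22.5% (21.4% to 23.7%) to 27.7% (26.6% to 28.9%), and Cct8 from 3.55% (3.08% to 4.09%) to 6.46% (5.86% to 7.13%). The shares sum to the whole, so lower shares of Cct5 and Cct7 raise those of the others. A larger share therefore needs no rise of the gene, as for Tcp1 with its log2 ratio of 0.07. The intervals of the 2 libraries overlapped for Cct4 and Cct6a and for no other subunit.

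**Figure D3:**
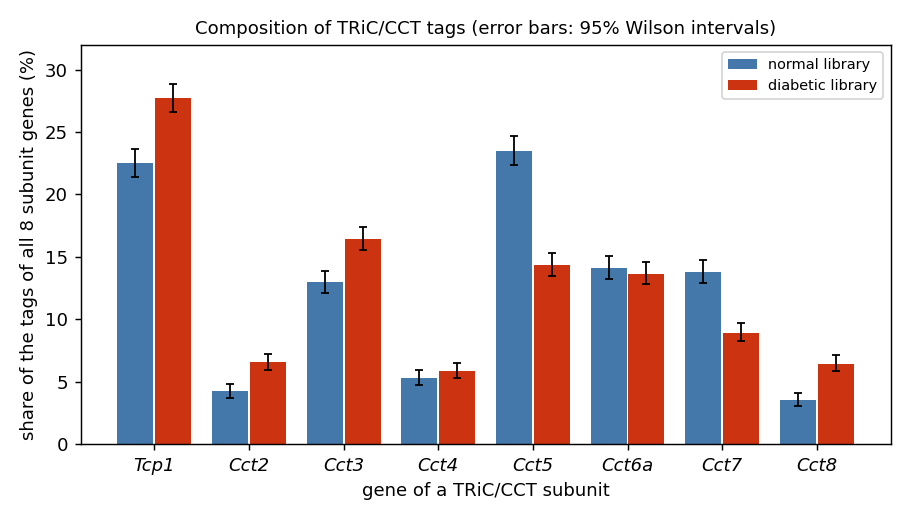
Share of each subunit gene in the tags of all 8 TRiC/CCT genes, in percent, in normal liver (blue) and the diabetic library (red), with 95% Wilson intervals as error bars. Cct5 falls from 23.5% to 14.4% and Cct7 from 13.8% to 8.94%, while Tcp1, Cct2, Cct3 and Cct8 take larger shares. Since the shares sum to the whole, a larger share needs no rise of the gene.

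J-proteins carry the domain that activates HSP70, and 6 of the 26 listed rose and 0 fell by the exact test with both criteria. The 6 that rose were 23.1% of the family, near the 22.9% of all genes that rose, while 8.19% of all genes fell. By the 1.5-fold threshold alone, 12 were higher and 1 was lower, beside 34.4% and 15.3% of all genes. The 19 members of class C had a median log2 ratio of 0.61, the 5 of class B 0.26 and the 2 of class A -0.17. Under TMM scaling 4 of the 26 rose and 0 fell, beside 14.9% and 13.4% of all genes. The median of the whole family was then 0.28 in place of 0.53.

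Dnajb4 (Entrez 67035), a cytosolic partner of HSP70, had 131 tags in normal liver and 393 in db/db liver, or 12.8 and 29.1 TPM. It was 2.28-fold higher, with a log2 ratio of 1.19 (95% interval, 0.90 to 1.49, exact test FDR 4.0e-17). Dnajc15 (Entrez 66148), which sits in the mitochondrial inner membrane, was at 24.03 and 45.90 TPM, 1.91-fold higher (log2 ratio 0.93, 95% interval 0.72 to 1.15, exact test FDR 4.1e-18). Its close relative Dnajc19, part of the motor that pulls proteins into the matrix, was at 97.8 and 146 TPM. The log2 ratio of Dnajc19 was 0.58 (95% interval, 0.47 to 0.69, exact test FDR 1.0e-24), and at 1.49-fold it stayed just under the threshold.

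Dnajc4 (Entrez 57431) went from 34 to 138 tags, or 3.31 to 10.2 TPM, a 3.09-fold increase with a log2 ratio of 1.63 (95% interval, 1.08 to 2.21, exact test FDR 6.4e-10). Dnajc9 (Entrez 108671), a histone chaperone, went from 20 to 82 tags, a log2 ratio of 1.64 (95% interval, 0.92 to 2.43, exact test FDR 2.4e-06), and its few tags make the interval wide. Dnajc25 (Entrez 72429) was at 4.86 and 9.77 TPM and Dnajc30 (Entrez 66114), a mitochondrial protein, at 6.62 and 11.3 TPM. Their log2 ratios were 1.01 (95% interval, 0.53 to 1.51) and 0.78 (0.35 to 1.21), and neither met both criteria under TMM scaling.

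Some J-proteins that met neither definition are given with values, chosen after these were seen. Dnajb1, the heat-inducible partner of HSP70, was at 10.3 and 8.74 TPM, a log2 ratio of -0.24 (95% interval, -0.63 to 0.15). Dnaja2 was at 7.69 and 6.07 TPM (log2 ratio -0.34, 95% interval -0.80 to 0.12). Dnaja3, the class A member of the mitochondrial matrix, was at 153 TPM in both libraries, with 1576 and 2061 tags and a log2 ratio of -0.01 (95% interval, -0.10 to 0.09), which was -0.26 under TMM scaling. Dnajc7, which also binds HSP90, was at 17.3 and 14.7 TPM, a log2 ratio of -0.24 (-0.54 to 0.06).

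The 20 J-protein genes that met neither definition had log2 ratios from -0.77 for Dnajc16, at 35 and 27 tags, to 1.13 for Dnajc24, at 24 and 69 tags, with a median of 0.38. Dnajc24 serves the modification of elongation factor 2 to diphthamide, and its exact test FDR was 0.0018. Also at least 1.5-fold higher without meeting the FDR were Dnajb12, Dnajc2, Dnajc12, Dnajc17 and Dnajc21, with log2 ratios of 0.72, 0.95, 0.71, 0.70 and 0.61. Dnajc12 assists the aromatic amino acid hydroxylases. The intervals of the log2 ratio of Dnajb2, Dnajb14, Dnajc1, Dnajc8, Dnajc11, Dnajc14, Dnajc22 and Dnajc28 included 0.

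The small heat shock proteins bind unfolded proteins without ATP. Hspb1 (Entrez 15507), the HSP27 gene, was at 8.66 TPM (89 tags) in normal liver and 4.74 TPM (64 tags) in db/db liver, and fell 1.83-fold, to a log2 ratio of -0.87 (95% interval, -1.36 to -0.39, exact test FDR 0.00061). The other three lay close together, at log2 ratios of 0.26 for Hspb8 (95% interval, 0.10 to 0.42), 0.28 for Hspb6 (-0.23 to 0.80) and 0.30 for Hspb11 (-0.02 to 0.62), near the median of all genes. Hspb11, despite its name, is a part of the intraflagellar transport machinery. Hspb8 works together with the co-chaperone Bag3, which was at 9.34 and 10.8 TPM (log2 ratio 0.21, 95% interval -0.17 to 0.60).

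The gene of the heat shock factor itself, Hsf1 (Entrez 15499), was at 7.10 TPM with 73 tags and 5.63 TPM with 76 tags, a log2 ratio of -0.33 (95% interval, -0.82 to 0.15). Hspbp1, a nucleotide exchange factor of HSP70, was at 14.9 and 12.9 TPM (log2 ratio -0.21, 95% interval -0.53 to 0.11). None of the 3 regulators met both criteria by the exact binomial test, also under TMM scaling.

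When the members were grouped by the compartment in which their proteins are known to work, a grouping made after the values were seen, 9 were mitochondrial, 29 cytosolic and 13 of other or several places. Of the 9 mitochondrial genes 4 rose and 0 fell, and of the 29 cytosolic genes 2 rose and 7 fell, where 22.9% of all listed genes rose and 8.19% fell. Under TMM scaling 3 mitochondrial genes and 1 cytosolic gene rose and the 7 cytosolic genes fell, beside 14.9% and 13.4% of all genes. For so few mitochondrial genes, 0 that fell is near these shares, and the difference between the compartments was not tested. The median log2 ratio was 0.58 for the mitochondrial and 0.07 for the cytosolic members, and was 0.32 and -0.18 under TMM scaling. Mitochondrial members gave 23.1% of the tags of the 51 members in normal liver (95% Wilson interval, 22.5% to 23.7%) and 36.3% in db/db liver (35.7% to 37.0%). Cytosolic members gave 71.8% (71.2% to 72.4%) and 57.3% (56.7% to 57.9%). Single genes carried much of these shares. Hspd1 alone gave 6.35% of the tags of the 51 members in normal liver and 13.7% in db/db liver, and the 2 HSP90 genes 32.8% and 19.7%.

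Co-chaperones and related genes, among them mitochondrial quality control genes and the HSF family, were taken from lists outside the set. Not all of them work with the chaperones examined here. Of 57 such genes 41 were listed, of which 15 rose and 2 fell, beside 22.9% and 8.19% of all listed genes. Under TMM scaling 10 rose and 4 fell, beside 14.9% and 13.4%. Among 10 listed genes of mitochondrial quality control, 6 rose and 1 fell, and under TMM scaling 4 rose and 1 fell, to be read against the same shares. Trap1 (Entrez 68015), the mitochondrial HSP90, had 97 tags in normal liver and 913 in db/db liver. At 9.44 and 67.6 TPM it was 7.16-fold higher, with a log2 ratio of 2.84 (95% interval, 2.54 to 3.16, exact test FDR 3.3e-121). Lonp1, the main protease of the matrix, rose 2.96-fold from 31.7 to 94.0 TPM. Clpp, the peptidase of the other matrix protease, fell to 14.2 TPM from 29.1 TPM (log2 ratio -1.03, 95% interval -1.30 to -0.77), while its partner Clpx was at -0.06 (-0.38 to 0.26). Of the 2 exchange factors of mitochondrial HSP70, Grpel1 was at 0.32 (-0.17 to 0.83) and Grpel2 at -0.85 (-1.56 to -0.16, exact test FDR 0.021).

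Of 16 listed co-chaperones of HSP90, 4 rose and 1 fell, which is near the shares of 22.9% and 8.19% of all genes, and their median log2 ratio was 0.38. Under TMM scaling 2 rose and 3 fell, beside 14.9% and 13.4% of all genes. Fkbp5, a peptidyl-prolyl isomerase that is also a known glucocorticoid target, rose 3.92-fold from 34 to 175 tags. Stip1, which links HSP70 and HSP90, was at 0.03 (95% interval, -0.24 to 0.30), Cdc37 at -0.13 (-0.36 to 0.09) and Fkbp4 at -0.40 (-0.60 to -0.21, exact test FDR 0.00011), and under TMM scaling Stip1 was at -0.22 and Fkbp4 at -0.66. Of 5 prefoldin and TRiC/CCT partners listed, Pfdn2, Vbp1 and Pfdn4 rose, with log2 ratios of 0.71, 1.09 and 1.81, where 22.9% of all genes rose. Under TMM scaling 2 of the 3 did, where 14.9% of all genes rose. Of 7 genes on the list of HSP70 co-chaperones 1 rose and 0 fell by the exact test with both criteria, beside 22.9% and 8.19% of all genes. The gene that rose, Fam192a, is known for binding a proteasome activator in the nucleus rather than as a partner of HSP70. In the HSF family, Hsbp1, which binds HSF1, rose 2.01-fold from 133 to 351 tags, and neither Hsf2, at 24 and 18 tags, nor Hsf4, at 11 and 37 tags, met the FDR. Of the 3 ER chaperones left out of the set, Dnajb9 was at a log2 ratio of 0.76 and rose, Hsp90b1 was at 0.56 (0.21 to 0.91) and Hspa5 at 0.13 (0.06 to 0.20). Under TMM scaling Dnajb9 was at 0.51 and no longer 1.5-fold higher, and Hspa5 was at -0.12, on the other side of 0.

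**Figure D4:**
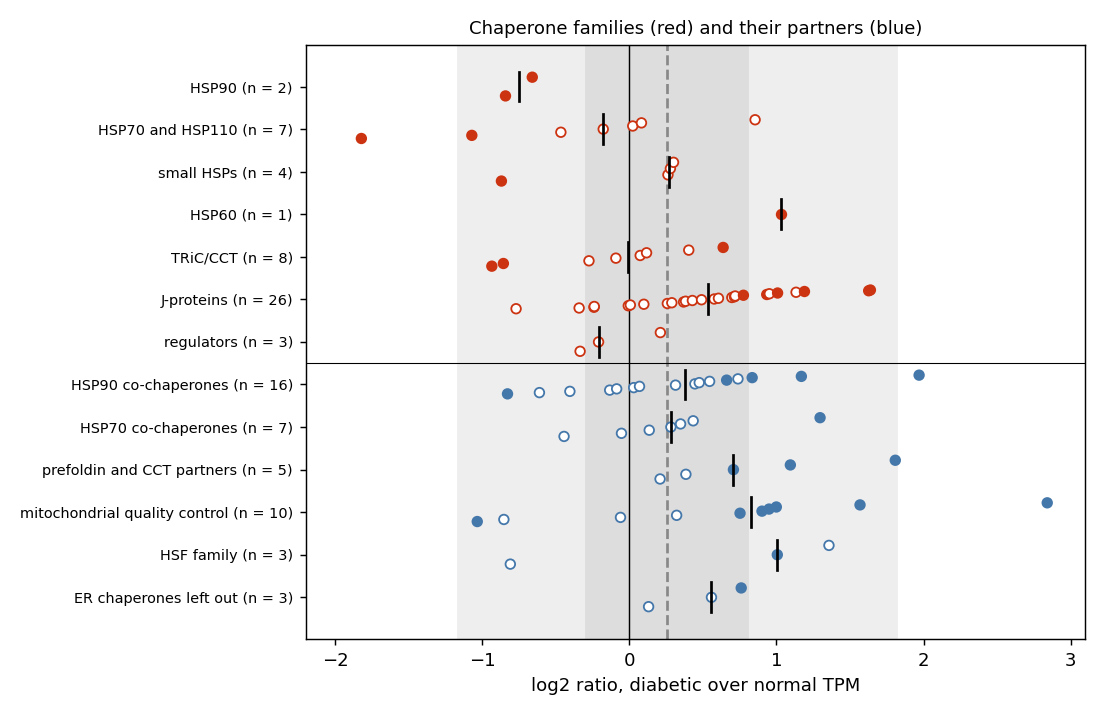
Log2 ratio of diabetic over normal TPM for each gene of the chaperone families (red) and of the partner lists (blue), with black bars at the medians and filled points for genes that met both criteria. Grey bands hold the middle 50% and 90% of all listed genes, and the dashed line is their median. HSP90 lies on the left at a median of -0.75 and mitochondrial quality control on the right at 0.83.

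Heat shock elements, the sites to which HSF1 binds, are made of alternating GAA and TTC units. The 250 bases before each start in the RefSeq promoter table (GRCm38.p6) were searched on both strands for GAANNTTC, for TTCNNGAA and for a longer form of 3 units, GAANNTTC followed by NNGAA, which contains both of the shorter ones. Of the members, 40 had a promoter in the table. GAANNTTC was present before 4 of these 40 genes, or 10%, against 6.13% of 6623 listed genes, and TTCNNGAA also before 4, or 10%, against 7.13%. The longer form was present only before Hspd1 among the members, and in 0.466% of all 32851 promoters of the table. The stretches of the members that held a motif and met both criteria are shown with the motif in capitals, to let the genes that fell be read beside those that rose.
Hspd1: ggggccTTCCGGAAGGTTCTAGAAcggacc, chr1:55088053-55088082, minus strand.
Dnajb4: ttcgttcgctgTTCTAGAAagtaca, chr3:152193846-152193870, minus strand.
Hsph1: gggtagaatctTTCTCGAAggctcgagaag, chr5:149636351-149636380, minus strand.
Cct5: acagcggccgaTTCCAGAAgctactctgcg, chr15:31601862-31601891, minus strand.
Hspb1: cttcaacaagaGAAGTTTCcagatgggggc, chr5:135887791-135887820, plus strand.
Hspb1: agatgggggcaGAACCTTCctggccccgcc, chr5:135887811-135887840, plus strand.
Motifs thus stood before 3 genes that fell, Hsph1, Cct5 and Hspb1, and before 2 that rose, Hspd1 and Dnajb4. They were absent before Hspa4 and Cct7, which fell, and before Cct8, Dnajc4, Dnajc9, Dnajc15 and Dnajc25, which rose. The share of listed genes with either motif was not computed, so these counts have no background beside them. Among the genes that rose or fell, Hsp90ab1, Hsp90aa1 and Dnajc30 had no promoter in the RefSeq table, so they were not searched. The run before Hspd1 was the longest, 18 bases that begin 144 bases before the start in the RefSeq table. The stretches shown for Hspd1 and Hsph1 overlap exon sequence that GENCODE annotates for the same gene, so they lie upstream of a RefSeq start but may not lie upstream of every annotated start. Cct2 and Hspb6, which met neither definition, also held GAANNTTC. A match is a description of the letters in this window and not evidence of binding.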

How the data were processed

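Liver poly(A) RNA of normal and db/db mice was profiled by digital gene expression, with 1 tag library for each group. The authors digested cDNA with DpnII, sequenced tags on an Illumina 1G sequencer, removed adaptors, compared high quality clean tags with RefSeq and normalized to all clean tags. The deposited values, called TPM by the authors, are therefore RPM values (tags per 1000000 clean tags), rounded to 2 decimals, with 0.01 written where no tag was found and genes with a mean under 1 left out. The genome build in the submitters' processing notes is mm9, and the aligner is not given in the sources used here. 0 other value columns were present.

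Tags were computed from the steps of the values, and 8513 of 8513 values above the placeholder in the normal library and 8536 of 8537 in the diabetic library were whole within 0.005 TPM. Fold changes used the deposited values. A two-sided exact binomial test on tags with Benjamini-Hochberg adjustment over 8551 genes gave the FDR, and the definition of 1.5-fold and FDR under 0.001 is that of the study. Depth limits precision, since 3 tags, the most that a count of 0 allows, equal 0.292 and 0.222 TPM. For TMM, 30% of the ratios and 5% of the abundances were trimmed on either side. The upper-quartile alternative set the 75th percentiles equal, and the median-ratio alternative took the 3673 genes averaging 10 TPM or more. Further alternatives were scaling to the sum of listed genes, an added 0.1 or 1 TPM as pseudocount, a 2-fold threshold and a minimum mean of 5 TPM. The computation was tested on simulated tags. Named were all members outside the J-proteins, and J-proteins that met both criteria averaging 5 TPM or more; other J-proteins and partners given with values, among them Dnajc9, were chosen after their values were seen. The members and lists were chosen with earlier results of these data known. The planned scan of protein sequences was not run. Expected tags came from the longest coding GENCODE M21 transcript with a RefSeq match. The work ran in Python 3.11.15 with pandas 2.3.3, scipy 1.17.1, numpy 2.4.6 and matplotlib 3.10.9.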

Additional observations from a re-analysis of the deposited data

How the results depend on the processing

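No paired analysis was possible because there is 1 library per group. The number of chaperone genes lower by both criteria, 7, was the same under each of the 4 scalings, both pseudocounts and the minimum mean of 5 TPM, and was 2 with a 2-fold threshold. The number higher by both criteria, 8 under the deposited values, was 5 under each of the 4 scalings and 5 with a 2-fold threshold. By the fold alone, 15 higher genes became 9 under TMM, upper-quartile and listed-sum scaling, 8 under median-ratio scaling, 9 with a minimum mean of 5 TPM and 6 with a 2-fold threshold, which lowered the 8 lower genes to 2. With a pseudocount of 1 TPM 11 were higher. Under each of the 4 scalings 11 were lower, so that lower genes then outnumbered higher ones. Of the partner genes, the 2 lower by both criteria became 4 under each scaling. The moves of the chaperone counts follow from the construction, since the scalings lower each ratio and the other settings are stricter or test fewer genes. The median log2 ratio of the members, 0.26, was 0.01 under TMM scaling and lowest under median-ratio scaling at -0.05. For 12 members the log2 ratio changed sign in at least 1 scaling, and 0 of these were 1.5-fold changed under the deposited values. With 1 library per group, variation between mice could not be measured.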
